A study of Mus musculus with 8 samples.

Results

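CpG islands are stretches of DNA dense in CpG dinucleotides, and the CpG island sites within promoters were described here for their DNA hydroxymethylation in 2 populations of the adult mouse oligodendrocyte lineage. A member was a CCGG site, on one strand of an autosome, that the authors' own annotation columns placed both in a CpG island and in the promoter of a named gene. Of 1497075 sites in the 4 libraries, 134415 were members, assigned to 10732 promoter genes. Adult oligodendrocyte progenitor cells (aOPCs) were sorted by fluorescence from brains of C57BL/6 mice carrying an EGFP reporter at the Pdgfra locus, and adult oligodendrocytes (aOLs) from brains of Plp-EGFP mice of that strain, all at postnatal day 60. No other allele or agent was named for either population, and the reporter line differed between them throughout, so that line and population cannot be told apart. Each population had 2 libraries by reduced representation hydroxymethylation profiling (RRHP) and 2 RNA-sequencing libraries, numbered replicates 2 and 3, with DNA and RNA taken from one pellet. The tissue label of the aOL RRHP libraries names the Pdgfra reporter, so these libraries were grouped by their titles. The aOL RNA titles call the cells pre-myelinating, whereas the extraction notes call them myelinating, and the stage was not resolved from the labels. How many animals stood behind a replicate was not given in the sources used here, and p-values measure only the spread between these libraries.

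5-Hydroxymethylcytosine (5hmC) is made from 5-methylcytosine by the Tet dioxygenases. CpG islands at promoters are usually free of methylation, including those of genes that a cell does not transcribe, and 5hmC in brain is known mainly from gene bodies and enhancers. RRHP reads 5hmC at CCGG, the recognition sequence of the enzyme MspI. Adapters are joined to MspI fragments, a glucose is added to 5hmC, and a further digestion removes the adapter from every end that glucose does not protect. A count on one strand of a site thus depends on the mark at that site and on the fragment that runs from it to the next CCGG.

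The sequences around the sites on which the comparison of aOLs with aOPCs turned are given here, read on the plus strand of GRCm38.p6 from RefSeq, with each CCGG in capitals. The first set surrounds 2 neighbouring CCGG of the Clcn4-2 promoter, at chr7:7299556-7299585 and chr7:7299624-7299653, which held called sites higher in aOLs, at the second on both strands.
Clcn4-2 CCGG 1: tctctgccgccacCCGGtggtgaccgagga
Clcn4-2 CCGG 2: aatgacgtcaccaCCGGgaggctcgatggc
The second set surrounds single sites that were higher in aOLs (Mrto4, chr4:139352319-139352348, and Ube2n, chr10:95515199-95515228) or lower in aOLs (Tom1, chr8:75033709-75033738).
Mrto4: gaagactgggcggCCGGttaggacCCGGct
Ube2n: tctgacaagatggCCGGgctgccccgcagg
Tom1: cgggtcggcggcgCCGGcggttgctgtcac
Another set shows wider windows, outside any RefSeq exon, for Vmn2r29 (chr7:7278355-7278535) and 6820431F20Rik (chr8:20296907-20297087), the promoters whose sites held the most reads among those called higher in aOLs.
Vmn2r29: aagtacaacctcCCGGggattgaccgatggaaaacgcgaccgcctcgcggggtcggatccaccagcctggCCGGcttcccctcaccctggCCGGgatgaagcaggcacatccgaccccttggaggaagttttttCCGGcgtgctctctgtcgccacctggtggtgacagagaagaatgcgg
6820431F20Rik: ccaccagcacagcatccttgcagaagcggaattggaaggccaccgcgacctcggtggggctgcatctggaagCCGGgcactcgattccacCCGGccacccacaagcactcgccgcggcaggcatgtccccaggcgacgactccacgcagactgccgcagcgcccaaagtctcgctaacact
The last set is for single-copy genes whose sites were among the highest in every library (Hic1, chr11:75167995-75168024, Prr5l, chr2:101797612-101797641, and Cspg4, chr9:56865189-56865218).
Hic1: gaaagaagttgccCCGGttaggggaagtga
Prr5l: gctctgccctacgCCGGgtcgcgtcctgcc
Cspg4: gatgcttctcggcCCGGgacacccgctgtc

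The aOPC libraries held 7113237 (replicate 2) and 17121440 reads (replicate 3) and the aOL libraries 15923775 (replicate 2) and 27057859 (replicate 3), an order kept wherever 4 values are listed, and aOPC replicate 2 stood apart from the other 3 in the values below. Counts were divided by the library total and are given as CPM (reads per 1000000 of the total). A single read was worth 0.141, 0.0584, 0.0628 and 0.0370 CPM in these libraries, and the floor of 3 reads was 0.422, 0.175, 0.188 and 0.111 CPM. Intervals and floors cover counting error only, since reads carried no molecular identifiers. The RNA of defining markers did not separate the sorted populations cleanly. The progenitor receptor Pdgfra had log2 values of 7.54 and 5.47 in aOPCs and 4.98 and 1.63 in aOLs. Vcan had 8.87 and 5.27 against 2.49 and 3.24, while Cspg4 (8.05 and 6.79 against 6.39 and 6.83) and Gpr17 (12.6 and 8.20 against 9.88 and 9.93) overlapped. Of 16 progenitor genes tested in RNA, 5 were lower and 0 higher in aOLs at an unadjusted p under 0.05 by limma. Their summed log2 level was 14 and 12.65 against 12.56 and 12.72. By staining, the study found most sorted cells to carry the markers of their own population. The myelin genes Mag (18.5 and 18.3 in aOPCs, 18.4 and 18.4 in aOLs) and Mog (17.6 and 17.8 against 16.9 and 17.2) were high in all 4 libraries. Of 26 myelin and oligodendrocyte genes, all 26 were listed in the RNA files, and the log2 of their summed level was 23.2 and 22.9 in aOPCs and 23.2 and 23.2 in aOLs. The summed level of 9 microglia markers was 11.7 and 10.5 in aOPCs and 10.98 and 10.40 in aOLs, and that of 10 astrocyte markers 13.9 and 13.5 against 13.5 and 13.7. That of the 5 endothelial and mural markers listed was higher in both aOL libraries, at 10.2 and 11.1 against 9.78 and 9.93. In such sorted pools fewer cells of a type and less RNA per cell cannot be told apart. The part of these markers in the results below was not tested.

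The annotation of the members fitted their label. In the 300 bases around a member the median was 30 CpG dinucleotides (4 to 73) and a G+C content of 69.3%, against 11 CpG and 55.3% around promoter sites outside islands. Every member lay at a CCGG of the reference. For 125705 members (93.5%) the promoter gene was found by symbol in RefSeq, and 124814 of these (99.3%) lay within 1000 bases of a transcription start of that gene, with a median of 107 bases downstream. The authors' exon column was filled for 57388 members (42.7%), the intron column alone for 42736 (31.8%), and neither for 34291 (25.5%). A gene had a median of 11 member sites (1 to 127).

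Hydroxymethylation was low at these sites in every library, lower than in any other class of autosomal sites. The mean per member site was 0.289 and 0.102 CPM in the aOPC libraries, and the aOL libraries had 0.0884 and 0.133 CPM. Promoter sites outside islands, of which there were 68548, had 0.651 and 0.524 CPM in aOPCs and 0.515 and 0.513 CPM in aOLs. The 36750 island sites outside promoters lay between, at 0.465 and 0.277 CPM in aOPCs and 0.270 and 0.344 CPM in aOLs. Members were thus 2.25-fold and 5.14-fold lower than promoter sites outside islands in the aOPC libraries and 5.82-fold and 3.85-fold lower in the aOL libraries. The mean log2 ratio was -2.01, with the same sign in 4 of 4 libraries (two-sided exact sign-flip permutation test, p = 0.125, the smallest that 4 libraries allow). Against island sites outside promoters the mean log2 ratio was -1.28 (exact p = 0.125, 4 of 4 libraries). For these 2 comparisons the Benjamini-Hochberg adjusted p was 0.125 as well.

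**Figure D1:**
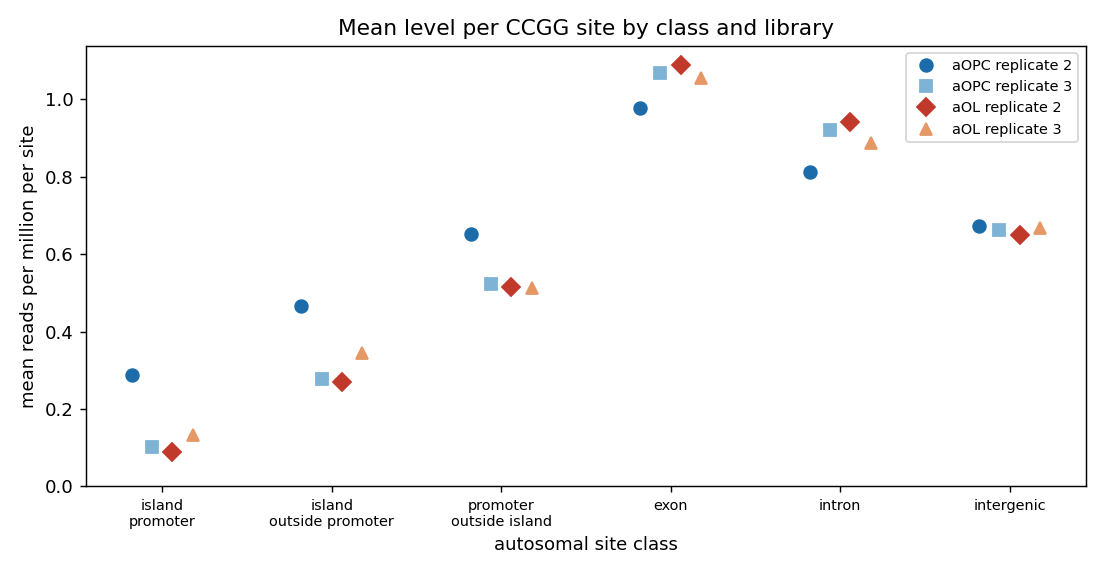
Mean CPM per CCGG site (vertical axis) for 6 classes of autosomal sites (horizontal axis), with 1 point for each of the 4 RRHP libraries. In every library the island promoter class is the lowest, between 0.0884 and 0.289 CPM.

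Most member sites held few reads. Of 134415 members, 70766 (52.6%) had at most 3 reads in every library and 129627 (96.4%) had under 10 reads in every library. At least 1 read was found at 76.4% and 67.5% of members in aOPCs and at 60.4% and 87.8% in aOLs. When each library was thinned to 7113237 reads, these shares were 76.4% and 42.4% in aOPCs and 37.6% and 51.4% in aOLs, so that aOPC replicate 2 alone stood above the other 3. At the upper end, 1489 members had a mean of at least 0.5 CPM, 420 at least 1 CPM and 36 at least 5 CPM.

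The share of autosomal reads in members was 4.03% (Wilson 95% interval 4.01 to 4.04) in aOPC replicate 2 and 1.41% (1.41 to 1.42) in aOPC replicate 3. It was 1.23% (1.22 to 1.23) in the first aOL library and 1.86% (1.85 to 1.86) in the second. The groups overlapped, since that of aOPC replicate 3 lay between the aOL values. The means were 2.72% ± 1.85 (SD, n = 2) in aOPCs and 1.54% ± 0.446 (SD, n = 2) in aOLs, and the ratio of aOL to aOPC was 0.568 (two-sided exact permutation test, p = 0.667, where the smallest possible is 0.333). Without aOPC replicate 2 the ratio was 1.09. A difference between the populations in the overall level of island promoters was therefore not detectable with these libraries.

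Among the members, the level was lower at high than at low CpG density, though not at every step. In aOPC replicate 2 the mean was 0.378 CPM at 15 to 19 CpG per 300 bases and 0.176 CPM at 50 or more. The corresponding pair was 0.147 and 0.0557 CPM in aOPC replicate 3, 0.131 and 0.0445 CPM in aOL replicate 2, and 0.173 and 0.0785 CPM in aOL replicate 3. Between these ends both aOL libraries rose at 20 to 24 CpG, aOL replicate 3 to 0.188 CPM and aOL replicate 2 by less, to 0.132 CPM. Promoter sites outside islands fell along the same axis. At the lowest density, below 10 CpG, 29947 promoter sites outside islands had 0.799 to 0.874 CPM per library and the 43 members 0.152 to 0.386 CPM. At equal density and with the next CCGG 60 to 300 bases away, the 2 kinds of promoter site differed less than overall. At 20 to 24 CpG the level of 14410 members was 1.05 and 1.12 times that of 2040 promoter sites outside islands in aOPCs and 1.15 and 1.23 times in aOLs. At 30 to 39 CpG the ratios were 1.12, 1.12, 1.17 and 1.12, and at 40 to 79 CpG they were 1.24, 1.199, 1.18 and 1.19. Members were the lower kind at 15 to 19 CpG (0.841, 0.659, 0.633 and 0.704) and at 25 to 29 CpG (0.880, 0.903, 0.827 and 0.811), so that the sign of the difference changed from bin to bin.

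Levels of members varied little along the promoter. In the 200 bases after the start the mean was 0.273 and 0.0914 CPM in aOPCs and 0.0771 and 0.119 CPM in aOLs, and at 800 to 1000 bases after it 0.317 and 0.124 CPM in aOPCs and 0.107 and 0.152 CPM in aOLs. Promoter sites outside islands dipped more at the start. In aOL replicate 2 they went from 0.848 CPM at 800 to 1000 bases before the start to 0.324 CPM in the last 200 bases before it. Over the same stretch members went from 0.0908 to 0.0781 CPM.

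**Figure D2:**
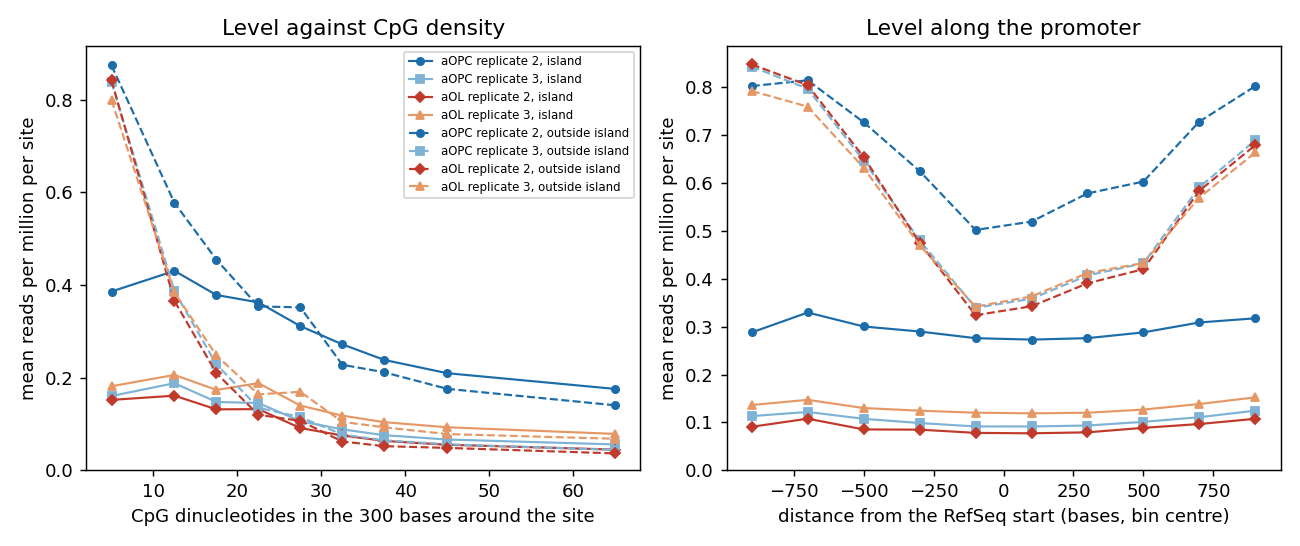
Mean CPM per site against the number of CpG dinucleotides in the 300 bases around the site (left) and against the distance from the RefSeq start (right), for member sites (solid lines) and promoter sites outside islands (dashed lines) in each of the 4 libraries. Levels are lower at 50 or more CpG than at 15 to 19 CpG in every library, and the dip at the start is shallow for members.

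The length of the fragment read from a site was related to its count. Members whose next CCGG on the read side lay 20 to 39 bases away had a mean over libraries of 0.0673 CPM, those at 100 to 149 bases 0.217 CPM, and those at 300 to 499 bases 0.0928 CPM. The median distance was 70 bases for members and 258 bases for intron sites. Restricting the comparison of members with promoter sites outside islands to distances of 60 to 300 bases left the mean log2 ratio at -2.02.

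The 2 strands of one CpG were listed together for 44146 of 90269 member CpGs (48.9%). Their means were alike, with 2.13 reads on the plus and 2.14 on the minus strand in aOPC replicate 2 and 3.65 and 4.04 in aOL replicate 3. Across pairs, however, the counts of both strands were nearly unrelated. Spearman's rho was 0.0472 and 0.0583 in aOPCs and 0.0648 and 0.0726 in aOLs over the 44146 pairs, which share a library and a core but not the fragment that is read. With both fragments 60 to 300 bases long (13852 pairs) rho was 0.0444, 0.0777, 0.0700 and 0.0902. For 7729 such pairs at promoter sites outside islands it was 0.273, 0.510, 0.508 and 0.477. Where the stronger strand of a member pair held at least 20 reads, the weaker one held a median of 13.3%, 14.3%, 16.9% and 21.0% of its count (89, 238, 186 and 413 pairs), and 28.1%, 24.0%, 20% and 28.7% with both fragments 60 to 300 bases long. For promoter sites outside islands these shares were 12.5%, 17.9%, 20.9% and 23.0%, and 29.7%, 40%, 42.7% and 42.0% with that restriction. Pairs of points at low counts carry wide counting error, and these correlations are descriptions across sites.

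Replicates followed one another at the better covered members. Over the 1040 members that reached 10 reads in 2 or more libraries, Pearson's r of log2(CPM + 0.5) was 0.913 for the pair of aOL libraries and 0.719 for the pair of aOPC libraries. Across populations it was 0.845 and 0.857 for aOPC replicate 3 with the aOL libraries, and 0.637 and 0.701 for aOPC replicate 2. Over all 134415 members Spearman's rho ran from 0.310 to 0.389, in pairs that share CpG density and fragment length at each site. The variance of the member counts was 1.60 to 2.09 times their mean once the 1344 members with most reads were left out, and these 1344 sites (1% of members) held 7.31% and 14.6% of member reads in aOPCs and 17.0% and 14.6% in aOLs.

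The 10 members with the highest mean level lay at Rn45s, the ribosomal RNA precursor, with 9 sites, and at Sfi1, a centrosome protein gene, with 1. The highest site, on the minus strand of chr17 at 39843312, held 1337 and 3302 reads in aOPCs and 4243 and 11980 in aOLs, which was 190 ± 3.46 CPM and 355 ± 125 CPM (SD, n = 2). The populations did not overlap there, and the difference did not pass the test (log2 fold change 0.79, adjusted p = 0.177). The Sfi1 site held 368, 564, 381 and 1360 reads in the 4 libraries, with ranges that overlapped. Ribosomal DNA is present in many copies, Sfi1 belongs to sequences with near-identical copies, and the counting of reads with several origins was not given in the sources used here, so both levels are uncertain as levels per copy. The 14 Rn45s sites held 2.13% and 4.42% of member reads in aOPCs and 6.09% and 6.43% in aOLs.

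Below these, 3 genes with high sites were chosen after their values were seen, and they are not the next in rank, since sites of Gm13238, Vmn2r29 and Mir5046 among others lay above them. A site 143 bases into Hic1, a transcriptional repressor gene, held 61 and 91 reads in aOPCs and 74 and 115 in aOLs. Its other strand held 19 and 29 reads in aOPCs and 18 and 38 in aOLs. A site 80 bases into Prr5l, which encodes a partner of the mTOR complex, held 64, 91, 71 and 130 reads in the 4 libraries, against 3, 4, 5 and 17 on its other strand. A site of Rhbdf2, a rhomboid pseudoprotease gene, held 57, 64, 62 and 123 reads. On the CPM scale both aOPC libraries lay above both aOL libraries at Hic1 (6.95 ± 2.31 against 4.45 ± 0.281 CPM, SD, n = 2) and Prr5l (7.16 ± 2.60 against 4.63 ± 0.244 CPM), and the populations overlapped at Rhbdf2. None of the 3 passed the test, with adjusted p of 0.475, 0.522 and 0.744 by edgeR. Among the 9219 genes with at least 5 member sites, the interquartile range of the level per site was 0.218 to 0.343 CPM and 0.0672 to 0.114 CPM for the aOPC libraries. It was 0.0549 to 0.0972 CPM and 0.0938 to 0.142 CPM for the aOL libraries. Against this, Rhbdf2 had 2.17, 1.19, 1.42 and 1.44 CPM per site over 5 sites, and Prr5l 1.81, 1.21, 1.07 and 1.17 over 9. The 420 members with a mean of at least 1 CPM had a median of 21 CpG per 300 bases, against 30 for all members.

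Only a small share of members held enough reads to be tested for a change between aOPCs and aOLs, and nothing can be said of change at the rest. The test was fitted across all 443062 sites that reached 10 reads in 2 or more libraries, of which 1040 were members, or 0.774% of members. It called 12 members higher and 9 lower in aOLs at an adjusted p under 0.05 (edgeR's quasi-likelihood test with Benjamini-Hochberg adjustment), or 2.02% of those tested, where 2.29% of all tested sites were called. By direction, the background was 1.21% higher and 1.08% lower. The members' share was near the background with this filter, but not when 10 reads were required in every library (2.12% of 283 members against 0.286%) or without a filter (0.120% against 1.55%). At an unadjusted p under 0.05, 43 members (4.13%) were higher and 85 (8.17%) lower, where the background was 5.45% and 4.31%. This balance turned to 60 higher and 27 lower without aOPC replicate 2, and to 54 and 27 with scaling factors set on island promoter sites. The median log2 fold change was -0.38 among tested members and -0.01 among all tested sites. Without aOPC replicate 2 the members' median was -0.05. With the factors set on island promoter sites it was also -0.05, the median of all tested sites moved to 0.31, and 16 members were called higher and 7 lower. Without aOPC replicate 3 only 4 members were called higher and 4 lower. Of the 21 called sites, 13 had at most 3 reads in both libraries of the lower population, and 14 passed the filter on low counts only through the population where they were high, so that those had to differ to be tested.

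**Figure D3:**
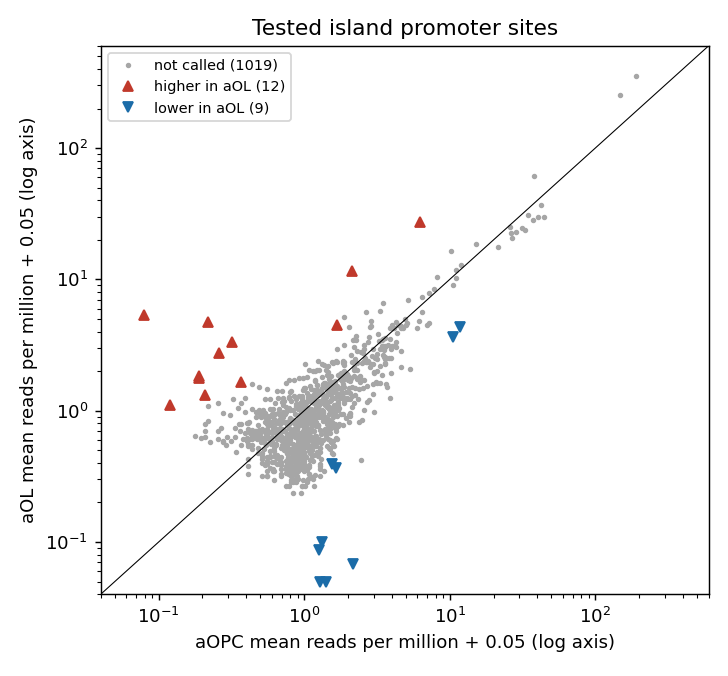
Mean CPM plus 0.05 in aOPCs (horizontal) and aOLs (vertical), both on log axes, for the 1040 tested island promoter sites; 12 sites called higher in aOLs are upward triangles, 9 called lower are downward triangles and the line marks equality. Most tested sites lie near the line, and several called sites sit near 0 in one population.

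Of the 12 members higher in aOLs, 5 had at least 50 reads in both aOL libraries, and of these the Clcn4-2 and Mrto4 sites entered the test only through the aOL libraries. The steepest was at Clcn4-2, which encodes a chloride and proton exchanger of intracellular membranes. Its plus-strand site at chr7 position 7299638, in the second Clcn4-2 sequence above, held 0 and 1 reads in aOPCs and 92 and 129 in aOLs, or 0.0292 ± 0.0413 CPM against 5.27 ± 0.714 CPM (SD, n = 2). The ratio of pooled reads per library total, aOL to aOPC, was 125 (exact 95% counting interval 22.1 to 4944, adjusted p = 1.94e-05 by edgeR). Both aOL libraries were far above both aOPC libraries. At Mrto4, a gene of ribosome assembly, the minus-strand site at chr4 position 139352334 held 2 and 1 reads in aOPCs and 70 and 135 in aOLs, a ratio of 38.5 (12.9999 to 188, adjusted p = 8.16e-05 by edgeR). The remaining 8 member sites of Mrto4 had at most 7 reads in any library, so that a single strand of a single CCGG carried the difference. In the 5000000 bases of chromosome 4 around it, 378 of 2726 tested sites were called (13.9%), where the median over 564 such bins was 0.851%.

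At Vmn2r29, a vomeronasal receptor gene, the minus-strand site at chr7 position 7278447 held 25 and 153 reads in aOPCs and 385 and 818 in aOLs, or 6.23 ± 3.83 CPM against 27.2 ± 4.28 CPM (SD, n = 2), and the log2 fold change was 1.99 (adjusted p = 0.00186 by edgeR). Its opposite strand held 1, 0, 1 and 6 reads. The next CCGG on the read side of the called site lay 20 bases away. Members with that distance at 20 to under 40 bases had a mean over libraries of 0.0673 CPM. At 6820431F20Rik, an uncharacterized gene, a site held 18 and 28 reads in aOPCs and 169 and 341 in aOLs (log2 fold change 2.46, adjusted p = 0.000409 by edgeR). Whether reads with several origins contributed to the Vmn2r29 or 6820431F20Rik site was not tested. The fifth was a site of Pcdhga11, a clustered protocadherin gene, with 11 and 29 reads in aOPCs and 75 and 113 in aOLs (log2 fold change 1.35, adjusted p = 0.0496 by edgeR), the only one of these 5 whose opposite strand also held more than 10 reads in most libraries, at 8, 11, 16 and 32. Of the 5, the Clcn4-2, Mrto4 and Vmn2r29 sites passed with each library left out. Without aOPC replicate 3 the adjusted p at 6820431F20Rik was 0.0631, and the Pcdhga11 site passed only without aOPC replicate 2 (0.0171), with 0.148, 0.573 and 0.357 without each of the others. It also missed the threshold with the replicate numbers as a block (0.0568), with DESeq2 (0.314), with factors set on island promoter sites (0.0584) and without a filter (0.0553).

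Of the 9 members lower in aOLs, 2 had at least 50 reads in both aOPC libraries. A site 135 bases before the start of Gm13238, a predicted gene, held 59 and 215 reads in aOPCs and 51 and 108 in aOLs, or 10.4 ± 3.01 CPM against 3.60 ± 0.558 CPM (SD, n = 2). The log2 fold change was -1.63 (adjusted p = 0.00375 by edgeR). A second called site of this gene, 73 bases away at chr4 position 145837011, held 9 and 33 reads in aOPCs and 3 and 12 in aOLs (adjusted p = 0.0311 by edgeR). Around them, 196 of 1471 tested sites were called (13.3%). Whether reads with several origins contributed to the Gm13238 sites was not tested. A site assigned to Mir5046, a microRNA gene, and to an exon of the kinase gene Rps6ka4, held 111 and 135 reads in aOPCs and 61 and 129 in aOLs (log2 fold change -1.53, adjusted p = 0.0358 by edgeR). Without aOL replicate 2 neither passed, with adjusted p of 0.189 and 0.239, nor with factors set on island promoter sites (0.132 and 0.257). The second Gm13238 site missed the threshold without aOL replicate 2 (0.351) and without aOPC replicate 3 (0.204). Without aOPC replicate 3 the first had 0.0865, and without aOPC replicate 2 the log2 fold change at Mir5046 was -0.83 (0.106).

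The remaining called members had fewer reads, and 5 of them are named here after their values were seen. Tom1, an endosomal sorting gene, had 13 and 41 reads at its site in aOPCs and 0 and 1 in aOLs, a ratio of aOPC to aOL of 95.8 (exact 95% counting interval 16.5 to 3852, adjusted p = 0.000130 by edgeR). Its other 14 member sites held at most 7 reads in any library. Ankrd12, a gene of a nuclear receptor cofactor, had 12 and 18 reads in aOPCs and none in aOLs, which was at least 9.15-fold lower when the aOL libraries were set at the floor of 3 reads each. Ndufa7, a subunit gene of respiratory complex I, had 13 and 11 reads in aOPCs and none in aOLs, at least 8.25-fold lower on the same terms. Ube2n, a ubiquitin-conjugating enzyme gene, was higher in aOLs with 3 and 0 reads against 30 and 94. Psat1, an enzyme gene of serine synthesis, was higher with 2 and 6 against 23 and 48. In these 5 the populations did not overlap, and all 5 sites entered the test only through the population where they were high. Without aOPC replicate 3 the adjusted p was 0.0654 at Tom1, 0.0833 at Ankrd12, 0.0739 at Ndufa7, 0.181 at Ube2n and 0.176 at Psat1. The Ndufa7 site also missed the threshold without aOPC replicate 2 (0.126), and Psat1 without either aOL library (0.0996 and 0.367).

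The Clcn4-2 promoter had 20 member sites, and 4 neighbouring ones were called, all higher in aOLs. Without aOPC replicate 3 only the site at 7299638 passed, and the adjusted p of the others was 0.194, 0.155 and 0.205 (positions 7299570, 7299639 and 7299679). The 8 sites from position 7299531 to 7299679, a stretch of 149 bases, held 7 and 6 reads in aOPCs and 189 and 357 in aOLs, and at 8 of 8 sites both aOL libraries had more reads than both aOPC libraries. The 12 other sites, from 7298562 to 7299305, held 21 and 10 reads in aOPCs and 15 and 22 in aOLs. Of these 12, both aOL libraries had more reads than both aOPC libraries at 1. The division was not fixed in advance. The stretch was drawn where the 4 called sites lie, so that the 8 of 8 is a description and not a test. In the authors' columns 0 of the 8 sites and 12 of the 12 others had an exon or intron entry, whereas in RefSeq both Clcn4-2 sequences shown lie wholly (30 of 30 bases) in an exon. Both strands were higher at the second CCGG, where the minus strand held 2, 0, 28 and 46 reads. Clcn4-2 is listed as Clcn4 in RefSeq. Of the 614 tested sites in its 5000000-base bin, 9 were called (1.47%), and the Vmn2r29 site lay in the same bin. At 6820431F20Rik a neighbour of the called site, at chr8 position 20297099, held 5 and 3 reads in aOPCs and 26 and 35 in aOLs. At Vmn2r29 the 22 other sites held up to 12 and 45 reads in aOPCs and up to 36 and 81 in aOLs.

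**Figure D4:**
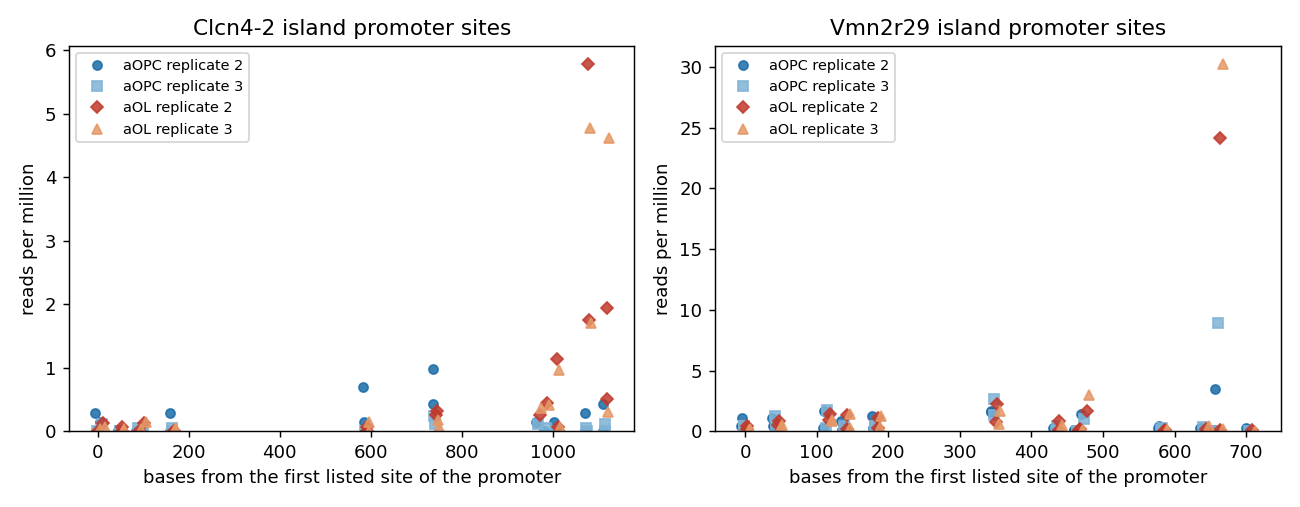
CPM at every member site of the Clcn4-2 promoter (left, 20 sites) and the Vmn2r29 promoter (right, 23 sites) against the distance in bases from the first listed site, with 1 point per library, shifted slightly sideways so that libraries can be told apart. The higher aOL values at Clcn4-2 lie together at one end, whereas at Vmn2r29 a single site stands out.

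Summing all member sites of a gene gave 9111 testable island promoters. The model was fitted over 35313 gene units (summed island promoters, other promoter sites and gene bodies), of which 0.790% were called (0.289% higher and 0.501% lower). It called 3 island promoters higher and 6 lower in aOLs, or 0.0988% (edgeR, adjusted p under 0.05). At an unadjusted p under 0.05, 9 were higher (0.0988%, background 2.38%) and 339 lower (3.72%, background 2.58%), which became 52 and 35 without aOPC replicate 2 and 43 and 69 with factors set on island promoters. The 3 that rose were Clcn4-2, with 28 and 16 summed reads in aOPCs and 204 and 379 in aOLs (log2 fold change 2.77, SE 0.366, adjusted p = 2.78e-09), 6820431F20Rik (1.99, adjusted p = 6.67e-07) and Vmn2r29 (1.12, adjusted p = 0.00717). The other 22 sites of Vmn2r29 together held 14.2, 12.03, 13.5 and 13.1 CPM in the 4 libraries, with populations that overlapped, so that its sum followed the 1 called site. The 6 that fell were Ndufa7, the class I histocompatibility genes H2-Bl and H2-Q2, Apitd1, and the unnamed transcripts 5730507C01Rik and 9030624G23Rik. H2-Bl held 33 and 24 reads in aOPCs and 0 and 1 in aOLs, and H2-Q2 held 34 and 27 against 0 and 4. Class I histocompatibility genes have near-identical copies, so reads may have been divided between them. At Apitd1, a centromere protein gene, there were 31 and 22 reads in aOPCs and 4 and 8 in aOLs. At Ndufa7, H2-Bl, H2-Q2 and Apitd1, 4 of the 9, only the aOPC libraries held 10 reads or more. These passed the filter on low counts only through the aOPC libraries. None of the 9 was called without aOL replicate 2 or without aOL replicate 3, where the model for all units made 0 member calls, and without aOPC replicate 3 it made 24 and 3602. The median log2 fold change of summed island promoters was -0.71, against -0.06 over all units, and 0.11 without aOPC replicate 2. With factors set on island promoters the medians were 0.0039 and 0.46, with 1 called higher and 7 lower, where none of the 3 named as rising passed (adjusted p of 0.180 at Clcn4-2, 0.780 at 6820431F20Rik and 0.962 at Vmn2r29), and with library totals 3 were called higher and 1 lower.

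Island promoters of gene groups are described next, beside the pooled level over all members of 0.289, 0.102, 0.0884 and 0.133 CPM per site. The counts called stand beside the 0.0988% of all tested summed island promoters that were called, so that 0 is the usual count for a list. Among 18 oligodendrocyte lineage factors with members (318 sites), the pooled level per site was 0.275 and 0.0799 CPM in aOPCs and 0.0744 and 0.114 CPM in aOLs, and 0 of 16 tested were called. Olig2, the bHLH factor that specifies the lineage, held 32 and 19 reads over 16 sites in aOPCs and 13 and 48 in aOLs. Its partner Olig1 held 31, 22, 12 and 55 reads over 16 sites, and Sox10, the factor that drives myelin genes, 17, 13, 9 and 21 over 8. Divided by site and library total these are 0.281, 0.0694, 0.0510 and 0.111 CPM per site for Olig2, all of them within the middle or low range of genes. The highest summed levels in this list were those of Nkx6-1, a homeobox factor (73, 48, 41 and 129 reads over 42 sites), Id4, an inhibitor of bHLH factors (63, 62, 31 and 106 over 26), and Yy1, a zinc finger factor (51, 51, 43 and 105 over 36). None of the 3 passed the test.

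Of the progenitor genes, 9 had members and 0 of 8 tested were called. Cspg4, the NG2 proteoglycan of progenitors, was the exception in level, with 2.999 and 2.28 CPM per site in aOPCs and 3.06 and 2.24 CPM per site in aOLs over 3 sites. Its reads were 64 and 117 in aOPCs and 146 and 182 in aOLs, the populations overlapped on the CPM scale, and the log2 fold change was 0.11 (SE 0.316, adjusted p = 0.932 by edgeR). Pdgfra held 29, 20, 7 and 36 reads over 12 sites. Olfm1 (87, 54, 39 and 117 reads) and Sox11 (74, 37, 39 and 103 reads), genes of neural development, followed Cspg4 in summed level. Of the myelin and oligodendrocyte genes 11 had members, and 0 of 10 tested were called. Car2, a carbonic anhydrase gene, held 48, 40, 28 and 67 reads, Ugt8a, which makes galactosylceramide, 30, 25, 41 and 78, and Cnp, a myelin phosphodiesterase gene, 34, 22, 15 and 41. Mog, Mag, Tet1 and Tet3 had no member site.

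Of 13 Tet, methyltransferase and repair genes with members, 0 of 13 were called. Dnmt3a, a de novo DNA methyltransferase gene, was highest with 0.615, 0.591, 0.400 and 0.439 CPM per site over 8 sites, followed in summed level by Mbd3 and Idh2. Tet2 held 34, 28, 18 and 40 reads over 18 sites (log2 fold change -1.11, SE 0.683, adjusted p = 0.872 by edgeR). Among developmental homeobox and patterning families 129 genes had members, and 0 of 117 tested were called. Their highest in summed level were Vax1, Pax6 and Barhl2, and Pax6 held 77, 76, 66 and 112 reads over 25 sites. Solute carriers had 199 genes with members and 0 of 175 tested were called. Slc25a31, a mitochondrial ADP and ATP carrier gene, led them in summed level with 39, 103, 80 and 168 reads over 9 sites, followed by Slc16a1 and Slc25a1. Slc12a2, a sodium, potassium and chloride cotransporter gene, held 38, 36, 34 and 93 reads over 27 sites (log2 fold change -0.24, SE 0.571, adjusted p = 0.916 by edgeR). Its RNA was 15.8 and 15.9 in aOPCs and 16.9 and 16.8 in aOLs on the log2 scale (log2 fold change 0.95, adjusted p = 0.133 by limma).

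Imprinted genes and clustered protocadherins had pooled levels above those of all members in 4 of 4 libraries. The same held for ribosomal protein genes, oxidative phosphorylation genes, and endothelial and mural markers. It also held for progenitor genes (0.365, 0.134, 0.138 and 0.163 CPM per site), so that the trait was not particular to these lists. The 30 imprinted genes with members had 0.321 and 0.173 CPM per site in aOPCs and 0.161 and 0.216 CPM in aOLs, against 0.289, 0.102, 0.0884 and 0.133 CPM over all members. Their median gene was closer to the rest, at 0.281, 0.117, 0.0979 and 0.181 CPM per site, against 0.281, 0.0876, 0.0749 and 0.115 CPM for all genes. Zrsr1, an imprinted splicing factor gene, had 0.876, 0.517, 0.413 and 0.442 CPM per site over 26 sites, and Gnas, the stimulatory G protein gene, 0.281, 0.197, 0.181 and 0.266 over 65. Phlda2 followed these in summed level. The 14 clustered protocadherins with members had 0.407, 0.259, 0.299 and 0.311 CPM per site over only 59 sites, led in summed level by Pcdhga11, Pcdha5 and Pcdhgc3. None of 24 imprinted genes or 8 protocadherins tested was called as a summed promoter.

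The 66 ribosomal protein genes (0.340, 0.131, 0.113 and 0.161 CPM per site) had 0 of 59 called, and Rps4y2 was the highest in summed level (84, 172, 123 and 309 reads over 15 sites), followed by Rps6 and Rps18. The 64 oxidative phosphorylation genes (0.344, 0.113, 0.0916 and 0.140 CPM per site) had 1 of 57 called, Ndufa7, where 9 of 9111 summed island promoters were called. Ndufa13, Ndufaf3 and Cox7c were the highest in summed level. Astrocyte markers (5 genes) pooled to 0.285, 0.0888, 0.0980 and 0.133 CPM per site and neuron markers (7 genes) to 0.285, 0.119, 0.0825 and 0.124. Endothelial and mural markers (4 genes, Cspg4 among them) had 0.452, 0.226, 0.258 and 0.255 CPM per site, and without the 3 sites of Cspg4 the other 63 sites had 0.330, 0.128, 0.125 and 0.160. In summed level Sox9, Fgfr3 and Gjb6 led the astrocyte markers, Nefm, Rbfox3 and Nefl the neuron markers, and Flt1 and Cldn5 followed Cspg4. No microglia marker had a member site. None of the summed promoters in these 3 lists was called.

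**Figure D5:**
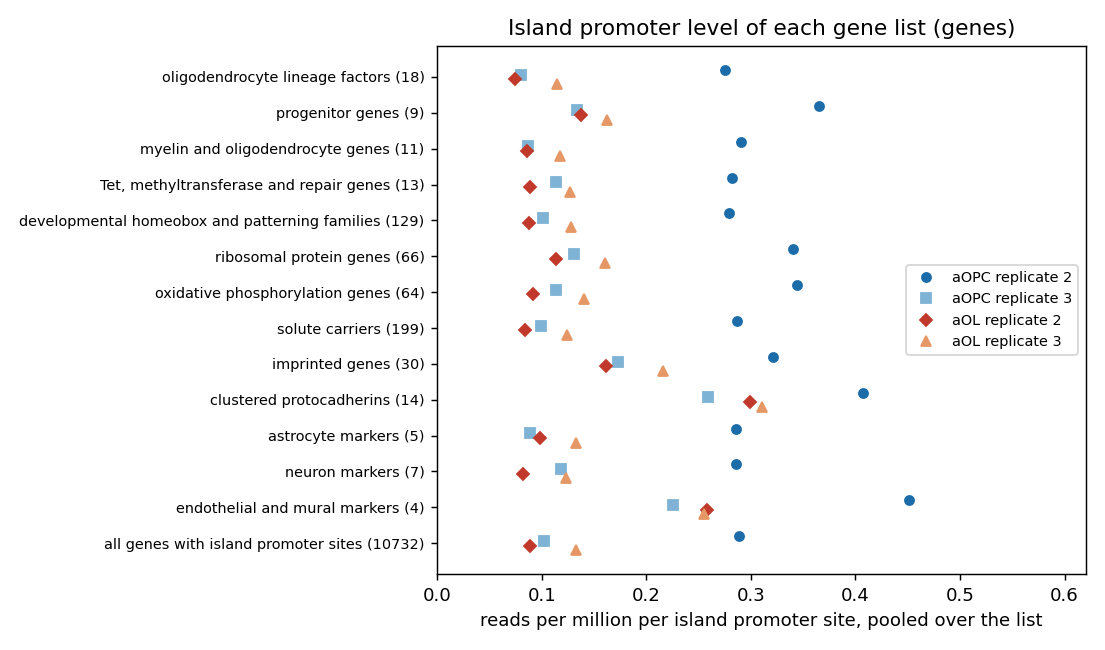
CPM per island promoter site, pooled over the genes of each list (number of genes with members in parentheses), with 1 point per RRHP library. In every list aOPC replicate 2 is the highest library, and protocadherins and the 4 endothelial and mural markers show the highest levels in the other 3 libraries.

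RNA of the named genes was set beside these levels. Of the genes with members, 8001 were listed in the RNA files and 7928 passed the filter on low values. By limma, 0 rose and 4 fell in aOLs at an adjusted p under 0.05 with p under 0.01, or 0.0505%, where 0.0808% of all 11133 tested genes were called (0.00898% higher and 0.0719% lower). At an unadjusted p under 0.05, 975 were higher (12.3%, background 12.1%) and 891 lower (11.2%, background 12%). At an unadjusted p under 0.01, 267 were higher (3.37%, background 3.45%) and 265 lower (3.34%, background 3.72%). The 4 that fell were Dusp26, a phosphatase gene (15.01 and 14.8 in aOPCs, 10.7 and 10.6 in aOLs on the log2 scale), Egr3, an immediate early gene (5.08 and 5.18 against 1.57 and 1.63), Slc16a11, a transporter gene (7.10 and 6.49 against 1.57 and 1.63), and Thbd, the thrombomodulin gene (10.2 and 9.77 against 5.599 and 5.42), each with an adjusted p of 0.0469. Egr3 and Slc16a11 passed the filter only through the aOPC libraries, where they were high. Without a filter limma called 0 genes with members, and 960 were higher and 885 lower at an unadjusted p under 0.05. The values 1.57 and 1.63 are not single measurements of these genes, since 73 and 85 genes hold exactly these values in the aOL libraries. Without aOPC replicate 2, 1396 rose and 1305 fell, and without aOPC replicate 3, 753 rose and 581 fell. Without aOL replicate 2 the count was 57 and without aOL replicate 3 it was 51, so that it depended on which libraries were kept.

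Of 17 genes with a called member site, 11 were tested in RNA and 0 were called, where few genes of any kind were called. RNA levels of some are given here. Clcn4-2 RNA was 14.4 and 14.7 in aOPCs and 14.3 and 14.3 in aOLs (log2 fold change -0.29, adjusted p = 0.459 by limma). Mrto4 RNA was 10.5 and 11.2 against 10.1 and 10.2 (adjusted p = 0.263), Tom1 11.2 and 11.3 against 11.4 and 11.4 (adjusted p = 0.666), and Vmn2r29 7.26 and 7.57 against 7.71 and 7.51 (adjusted p = 0.612). Ndufa7 RNA was 12.7 and 12.98 in aOPCs and 11.6 and 11.8 in aOLs, and that of Mif, a cytokine gene with a called site, 13.2 and 13.9 against 12.5 and 12.6. In both the populations did not overlap, and their adjusted p were 0.133 and 0.168 by limma. Of the 89 oxidative phosphorylation genes tested in RNA, 59 were lower and 0 higher in aOLs at an unadjusted p under 0.05 (median log2 fold change -0.92). Of 80 ribosomal protein genes 75 were lower and 0 higher on the same terms (median -1.21). Over all tested genes 12% were lower, the median over genes with members was 0.04, and 0 genes of either list passed the adjusted threshold. Pcdhga11 RNA was 10.2 and 10.2 against 9.38 and 8.91 (adjusted p = 0.145). Its list went the other way: of 36 clustered protocadherins tested in RNA, 14 were higher and 1 lower at an unadjusted p under 0.05 (median 1.10). Zrsr1 RNA was 9.38 and 9.02 in aOPCs and 12.2 and 12.1 in aOLs (log2 fold change 2.98, adjusted p = 0.0611 by limma), while its island promoter had a log2 fold change of -0.58 (adjusted p = 0.872 by edgeR). Hic1 and Rhbdf2 were not listed in the RNA files.

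The level of an island promoter bore little relation to the RNA level of its gene. For 6723 genes with at least 5 member sites, RNA was expressed per kilobase of RefSeq exon and divided into 3 groups of equal size. The median level per site in aOL replicate 2 was 0.0733 CPM in the lowest group, 0.0712 in the middle group and 0.0725 in the highest. In aOPC replicate 2 these were 0.268, 0.268 and 0.281 CPM. For the 2210 genes with at least 5 sites that the RNA files did not list, the medians were 0.286 and 0.0943 CPM in aOPCs and 0.0807 and 0.122 CPM in aOLs. Spearman's rho across genes, which are not independent replicates, was 0.0374 and 0.0182 in aOPCs and -0.0260 and 0.00172 in aOLs.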

How the data were processed

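Hydroxymethylation and RNA were measured in 2 RRHP and 2 RNA-sequencing libraries each of aOPCs and aOLs. The deposited RRHP files hold raw counts of reads at each CCGG site on each strand, aligned by the authors to mm10, with their promoter, exon, intron and CpG island columns. Their aligner and how they treated duplicates and reads with several origins were not given in the sources used here. The promoter column holds another window than the study's methods describe: of matched members 99.3% lie within 1000 bases of a start, 11.1% lie 500 to 1000 bases downstream and 0.552% beyond that. For RNA, the deposited values are log2 expression per gene symbol, which the authors made with BWA, featureCounts and DESeq2, and their quantiles are nearly equal between libraries.

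The union of sites was taken over the 4 count files, with 0 for a site that a file did not list (109457 members were listed for both replicate numbers, 7829 for replicate 2 only and 17129 for replicate 3 only). Library totals over all sites gave the CPM. CpG density, CCGG and starts were read from GRCm38.p6 and RefSeq. Counts were tested with edgeR 4.0.16 (TMM, quasi-likelihood). Sites entered if they reached 10 reads in 2 or more libraries, and gene units if edgeR's filterByExpr filter on low counts kept them. RNA was tested with limma 3.58.1 over genes reaching a log2 value of 5 in 2 or more libraries. Population was the only term in each. Shares and ratios were compared by exact permutation over libraries. Each fit was tested on simulated data. Alternatives included DESeq2 1.42.0, other scalings and filters, a replicate block, and leaving out each library.

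Named genes were the called sites whose higher population had 50 reads or more in each library (8 largest folds each way), the called summed promoters under the same minimum (all called sums are named in the text), the 10 highest sites, the 3 genes with the highest summed level of each of the 13 lists with member genes, and a fixed panel of lineage, myelin and Tet genes with Slc12a2. Members, lists and tests were chosen with earlier results of these data known. Island promoter sites on the sex chromosomes and scaffolds stood outside the rule. Some called sites are not reported here.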

Additional observations from a re-analysis of the deposited data

Results flagged for a closer look

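Island promoter sites of the X chromosome, which stood outside the rule, carried signal that the comparisons above did not use. Their mean level (3132 sites) was 0.823 and 0.894 times that of autosomal island promoter sites in aOPC replicates 2 and 3, and 1.81 and 1.93 times in aOL replicates 2 and 3. They held 0.238 and 0.0911 CPM per site in aOPCs and 0.160 and 0.257 CPM per site in aOLs.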

How the results depend on the processing

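The lower level of members than of promoter sites outside islands kept its sign in every alternative run that pooled all CpG densities. The mean log2 ratio ran from -2.28 to -1.83 when 1 library was left out. At equal CpG density the sign changed from bin to bin. Members had 0.633 to 0.841 times the level of promoter sites outside islands at 15 to 19 CpG, and 1.18 to 1.24 times at 40 to 79 CpG. The ratio of aOL to aOPC in the share of reads ran from 0.383 to 1.09 when 1 library was left out, and turned above 1 only without aOPC replicate 2 (1.09). Member sites called came to 36 with a crossed replicate block, 6 with 10 reads in every library, 12 with DESeq2 and 161 without a filter (17 higher, 144 lower), and to between 8 and 21 with 1 library left out, where the 8 came without aOPC replicate 3. Over all sites these filters called 0.286% and 1.55%, against 2.12% and 0.120% of members. Summed promoters called came to 4 with library totals, 3 with the replicate block, 31 with the crossed block and 2 when sites needed 3 reads in every library. With 1 library left out they ran from 0, without either aOL library, to 3626 without aOPC replicate 3, and the lone sample was then assumed to vary like the other population. RNA calls came to 532 at an unadjusted p under 0.01, 0 without a filter and 69 with the replicate block, and ran from 51 to 2701 with 1 library left out. The cause of these shifts was not tested.

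Replicate numbers did not pair animals across populations. Whether same-numbered libraries shared a batch was not tested, since 2 libraries per population give only a single contrast within each. The deviations of same-numbered libraries correlated at -0.17 over tested member sites, -0.08 over all tested sites, -0.526 over gene units and -0.0739 over RNA, and each population came from its own mice. Under the replicate block 13 member sites were called higher and 14 lower, and 20 of the 21 main calls stayed. The crossed block, chosen after seeing the data, called 16 and 20 sites and 5 and 26 summed promoters. Of 167 values of named sites and promoters under these alternatives, 118 stayed past the threshold, 49 did not, and none changed sign. The depth limits what can be read at single members, since 52.6% had at most 3 reads in every library.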
